A study of Mus musculus with 19 samples.

Results

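Manf, Cdnf, Creld1 and Creld2 encode 2 pairs of paralogous proteins of the endoplasmic reticulum (ER), and in each pair 1 gene is known as inducible by ER stress. They were taken as the rows of the count table whose Ensembl identifier maps to these symbols, which gave 4 of the 51789 genes of the table. The dorsal hippocampi of C57BL/6J males aged 2 to 4 months gave 19 RNA-seq libraries of total RNA depleted of ribosomal RNA. In experiment 1 all mice carried tTA, the tetracycline transactivator that switches on tet-controlled transgenes, and all were exposed to SOR, a condition the labels give only by this abbreviation. There, 5 DN libraries came from tTA+/DN+ mice, named Nr4ADN in the series' design text, and 6 control libraries came from tTA+/DN- mice. In experiment 2 no mouse carried DN, and 4 libraries from mice exposed to SOR stand against 4 from homecage mice. SOR replicate 1 and homecage replicates 1 and 2 of experiment 2 were tTA-/DN-, and the other 5 libraries were tTA+/DN-. The promoter that drives tTA is not given in the sources used here, and a genotype is all that is labelled for the cells that express DN.

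MANF and CDNF form a family of small ER proteins that can be secreted and that were named for their support of dopamine and other neurons. MANF is held in the ER partly through BiP, the chaperone encoded by Hspa5, and its gene is a classical target of the unfolded protein response. That response is the programme by which cells raise chaperone genes when unfolded proteins build up in the ER. CRELD proteins carry cysteine-rich and epidermal growth factor-like repeats. CRELD1 is anchored in the membrane and is best known for its link to heart septal defects, whereas CRELD2 lacks the anchor, can be secreted and is induced by ER stress.

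On GRCm38, Manf (ENSMUSG00000032575.16) lies on the minus strand at chr9:106838312-106891979 and Cdnf (ENSMUSG00000039496.8) on the plus strand at chr2:3513030-3526376. Creld2 (ENSMUSG00000023272.4) lies on the plus strand at chr15:88819646-88826683 and Creld1 (ENSMUSG00000030284.11) on the plus strand at chr6:113483297-113493343. The longest annotated coding sequences correspond to 179 residues for Manf, 187 for Cdnf, 350 for Creld2 and 420 for Creld1. Within the annotated span of Manf lie exons of other genes, among them Dcaf1, Rbm15b and the antisense transcript 4930524O07Rik, and 9.25% of the exon bases of Manf are shared with another gene on either strand. How the counting treated strand is not given in the sources used here, so reads from those shared bases cannot be assigned with certainty. No exon base of the other 3 genes is shared.

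The bases upstream of 3 of the 4 genes are shown because the ER stress response element (ERSE) is the best known DNA element of this response. It joins a CCAAT box, bound by the factor NF-Y, to a CCACG site, bound by ATF6, with 9 bases of any kind between them (CCAAT, then CCACG). The windows run over the 250 bases before the start of the RefSeq transcript on GRCm38.p6, 5′ to 3′ on the strand of the gene, and capitals mark every CCAAT box and every CCACG site on either strand (ATTGG and CGTGG are the same letters on the other strand). The promoter table has entries for 3 of the 4 members and none for Manf.
Creld2, chr15:88819396-88819645, plus strand: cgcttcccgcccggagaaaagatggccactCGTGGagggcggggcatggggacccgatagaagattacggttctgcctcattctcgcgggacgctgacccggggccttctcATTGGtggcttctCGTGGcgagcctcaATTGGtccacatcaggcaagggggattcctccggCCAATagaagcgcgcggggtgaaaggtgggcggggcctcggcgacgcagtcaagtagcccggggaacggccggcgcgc
Creld1, chr6:113483106-113483355, plus strand: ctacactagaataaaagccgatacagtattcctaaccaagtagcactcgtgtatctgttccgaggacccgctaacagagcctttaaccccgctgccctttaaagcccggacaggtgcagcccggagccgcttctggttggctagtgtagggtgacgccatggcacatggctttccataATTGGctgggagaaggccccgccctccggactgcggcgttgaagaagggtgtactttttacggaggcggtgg
Cdnf, chr2:3512815-3513064, plus strand: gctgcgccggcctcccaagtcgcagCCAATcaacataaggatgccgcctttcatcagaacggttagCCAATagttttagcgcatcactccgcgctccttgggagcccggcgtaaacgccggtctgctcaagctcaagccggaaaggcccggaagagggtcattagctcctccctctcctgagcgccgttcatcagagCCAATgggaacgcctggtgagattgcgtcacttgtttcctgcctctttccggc
The Creld2 window holds 3 CCAAT boxes and 2 CCACG sites, and 1 box and 1 site stand in the spacing of an ERSE, 126 to 108 bases before the start, at chr15:88819520-88819538. Read on the minus strand it runs as in the first line below, and the ERSE that stands 65 to 47 bases before the start of Hspa5 (chr2:34772025-34772043, plus strand) is given under it for comparison.
Creld2 ERSE: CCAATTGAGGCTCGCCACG
Hspa5 ERSE: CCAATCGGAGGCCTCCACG
The Creld1 window holds 1 CCAAT box and the Cdnf window 3, and neither holds a CCACG site. Of all 32851 promoter windows of 300 bases in the table (250 before and 50 after the start), 0.119% hold an ERSE, 37.4% a CCAAT box and 32.8% a CCACG site on either strand. The 300-base windows of the 3 members hold no ERSE-II (ATTGG and CCACG with 1 base of any kind between them, in 0.0365% of windows), no NBRE (AAAGGTCA, the element bound by single Nr4A proteins, in 1.51%) and no cyclic AMP response element (TGACGTCA, in 1.79%). These are letter matches only.

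The libraries held 22258159 to 66991576 counts, and SOR replicate 3 of experiment 2 was the smallest. Levels are CPM values (counts relative to the library total) scaled with TMM within each experiment, and values per kilobase of annotated exon (RPKM) serve to compare genes. All 6 neuronal marker genes, Rbfox3 and Snap25 among them, were detected in every library, with summed levels of 2850 to 4250 CPM. Summed levels of 8 choroid plexus genes varied far more, from 322 to 6520 CPM, and Ttr, the best known of them, ranged from 4.22 to 3840 CPM, with 7 of the 8 detected in every library. Summed markers of blood lay at 36.9 to 110 CPM, of oligodendrocytes at 6000 to 8400, of astrocytes at 3930 to 4980 and of microglia at 257 to 308, and edgeR called no marker gene of any of these types in any comparison. The labels do not say whether each library is 1 animal, so p-values measure the spread between these libraries.

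Per kilobase of annotated exon, Manf stood at 10.2 ± 0.646 and Creld2 at 10.4 ± 1.16 RPKM in homecage mice (mean ± SD, n = 4). Creld1 stood at 13.0 ± 1.28 RPKM there, and Cdnf was far lower at 0.550 ± 0.00855 RPKM. The order of the first 3 depends on the libraries and on the length used. Over all libraries, means per kilobase of exon were 15.8 for Creld2, 14.2 for Manf, 13.5 for Creld1 and 0.569 for Cdnf. Per kilobase of coding sequence, means over all libraries were 92.9 for Manf, 45.6 for Creld1, 20.5 for Creld2 and 3.15 for Cdnf. Cdnf rested on 38 to 122 counts per library, against 1107 to 3124 for Manf, 484 to 1344 for Creld2 and 1636 to 3549 for Creld1. Its values therefore carry the largest counting error of the 4. By mean CPM, Manf was lowest in homecage libraries (35.9), followed by DN (45.1), SOR of experiment 2 (56.3) and the controls of experiment 1 (58.9). Every neighbouring pair in this order comes from different experiments, which were scaled apart. Creld2 followed homecage (14.2), DN (19.1), controls of experiment 1 (24.7) and SOR of experiment 2 (27.2). Creld2 ranges of DN and controls overlapped, as did those of controls and SOR. For Creld1 (51.8 CPM in DN, 55.0 in controls, 55.5 in homecage and 70.2 in SOR) and Cdnf (1.62 CPM in controls, 1.71 in homecage, 1.85 in DN and 1.95 in SOR) every neighbouring pair of groups overlapped. Levels of different experiments were not tested against each other, because experiment and group cannot be told apart.

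**Figure D1:**
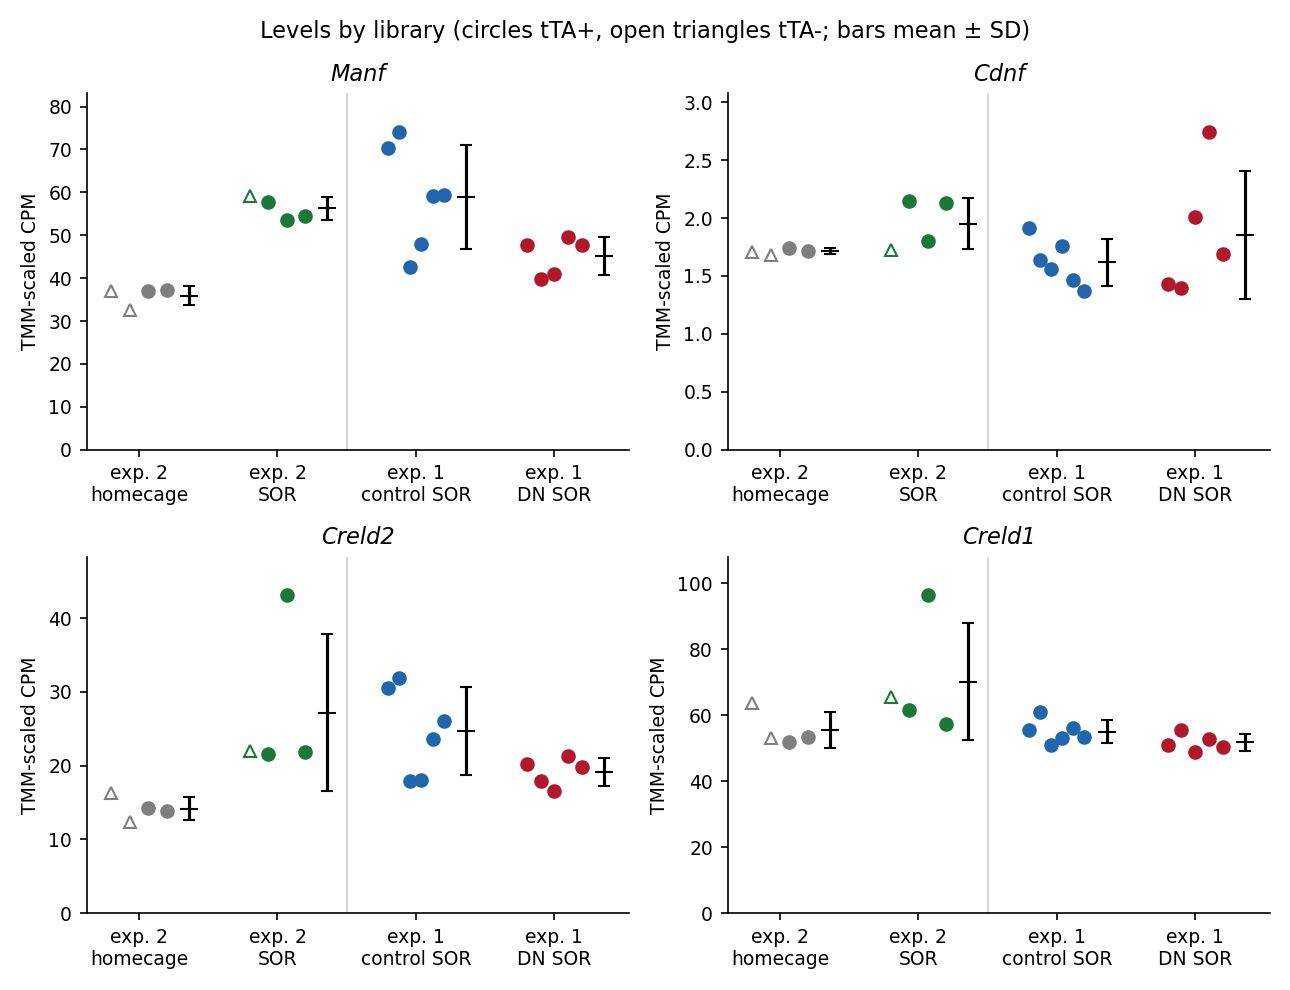
TMM-scaled CPM of Manf, Cdnf, Creld2 and Creld1 (y axis, from 0) in each of the 19 libraries by group (x axis), with circles for tTA+ and open triangles for tTA- libraries and bars for mean ± SD. Manf and Creld2 lie higher in every SOR library of experiment 2 than in any homecage library, Creld2 and Creld1 have their highest value in SOR replicate 3 (43.1 and 96.4 CPM), and Cdnf shows overlapping groups.

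The first comparison asked which genes differ between control mice after SOR and control mice from the homecage. Both inducible genes were higher in every SOR library, and the change of Manf passed the test over all genes. The homecage libraries had 37.1, 32.5, 37.0 and 37.1 CPM of Manf (replicates 1 to 4), and the SOR libraries had 59.2, 57.7, 53.6 and 54.5 CPM. The lowest SOR value stood well above the highest homecage value. Manf rose by 0.65 on the log2 scale (SE 0.0822, 1.57-fold, adjusted p = 0.0133, edgeR quasi-likelihood test), at rank 10 by p among 22305 genes. edgeR called 20 of these genes, all higher (0.0897%), and Manf was the only member among them.

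Whether Manf was called depended on which libraries were included and on the model. Leaving out any 1 library moved the log2 value between 0.60 and 0.67. The adjusted p went above 0.05 (0.0780 to 0.0942, edgeR) without SOR replicate 1 or without any 1 of the 4 homecage replicates, and stayed below it without SOR replicate 2, 3 or 4 (0.0491, 0.00391 and 0.0319). In tTA+ libraries alone, 3 against 2, the log2 difference was 0.58 with an adjusted p of 0.998 (edgeR), and no gene at all was called. With tTA genotype in the model the call stood (adjusted p = 0.0440, edgeR). With replicate number as a block it did not (log2 difference 0.65, adjusted p = 0.0710, edgeR).

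Creld2 had 16.2, 12.4, 14.3 and 13.8 CPM in the homecage libraries and 21.99, 21.6, 43.1 and 21.9 CPM in the SOR libraries. SOR replicates 1, 2 and 4 were nearly equal, replicate 3 had close to double their level, and all 4 were above every homecage library. The difference of 0.93 on the log2 scale (SE 0.213, 1.90-fold) did not pass the test over all genes (adjusted p = 0.269, edgeR). Without SOR replicate 3 it was smaller and steadier, 0.63 with an SE of 0.0946 and an adjusted p of 0.0259 (edgeR). DESeq2 called it with all 8 libraries (adjusted p = 0.00867). These settings called 50 and 116 genes in all, against 20 in the chosen fit. Creld2 stayed uncalled in 7 of 8 fits with 1 library left out and in 10 of 11 other alternatives. Its adjusted p was 0.547 with tTA in the model (edgeR) and 0.321 by limma-voom. Of the 4 members, Manf and Creld2 had groups without overlap, higher after SOR, as had 3.06% of the genes tested.

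The paralogs did not pass. Cdnf had 1.71, 1.68, 1.74 and 1.72 CPM in the homecage libraries and 1.73, 2.15, 1.80 and 2.13 CPM after SOR, a log2 difference of 0.19 (SE 0.169, adjusted p = 0.729, edgeR). SOR replicate 1 fell within the narrow homecage range, and replicates 2 and 4 were the highest of the experiment. Creld1 had 63.6, 53.0, 52.0 and 53.3 CPM in the homecage libraries and 65.5, 61.7, 96.4 and 57.3 CPM after SOR, a log2 difference of 0.34 (SE 0.151, adjusted p = 0.652, edgeR). The groups overlapped through homecage replicate 1, and without SOR replicate 3 the difference was 0.15 (SE 0.0858, adjusted p = 0.676, edgeR).

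Choroid plexus markers differed between the libraries of this comparison: their summed level was 355 to 531 CPM in homecage libraries and 1720, 3740, 355 and 423 CPM in SOR replicates 1 to 4. SOR replicates 3 and 4 were within the homecage range for these markers, and had 53.6 and 54.5 CPM of Manf. An unadjusted p under 0.05 (edgeR) was found for 5 of 8 choroid plexus, 3 of 8 oligodendrocyte, 2 of 5 microglia, 1 of 6 astrocyte, 1 of 5 blood and 0 of 6 neuronal markers, and none was called. The part of these markers in the differences after SOR was not tested. In bulk tissue, more cells of a type and more RNA per cell cannot be told apart.

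The other genes of the ER stress response were read in the same fit. Of 27 such genes, all tested, 4 rose (adjusted p under 0.05, edgeR), 14.8% against 0.0897% called among all genes. None of the 27 fell, and 23 did not pass. Their median log2 difference was 0.28 against 0.0076 over all genes tested, 24 were positive, and 15 were higher at an unadjusted p under 0.05, as were 3.67% of all genes tested. The risen genes were Sdf2l1, a partner of BiP (1.05, SE 0.141, adjusted p = 0.0200), Hspa5 itself (0.87, SE 0.119, adjusted p = 0.0228), Xbp1, which encodes a transcription factor of the response (0.70, SE 0.0770, adjusted p = 0.00879), and Dnajc3, a BiP cochaperone (0.46, SE 0.0700, adjusted p = 0.0432, all edgeR). Hspa5 had 318 to 400 CPM in homecage libraries and 573 to 810 CPM after SOR. Next by p came Herpud1 (0.52), Pdia4 (0.64), Pdia6 (0.64), Calr (0.42) and Dnajb11 (0.48), with adjusted p from 0.0612 to 0.177 (edgeR). The list's calls fell to 1 with tTA in the model, to 0 in tTA+ libraries alone, and to 0 without homecage replicate 1, 2 or 3 or SOR replicate 1, to 1 without homecage replicate 4 and rose to 7 without SOR replicate 3.

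Other parts of the response gave no call. The sensors Atf6 (-0.04), Ern1 (0.08) and Eif2ak3 (0.17), and the ER DnaJ gene Dnajb9 (-0.07), did not pass (log2 differences, adjusted p from 0.697 to 0.940, edgeR). Other uncalled list genes were higher at an unadjusted p under 0.05 (edgeR). Among them were Hyou1 (0.36), Pdia3 (0.33), Hsp90b1 (0.33), Atf4 (0.28) and Ddit3 (0.24). Of 8 genes whose products retrieve or are reported to bind MANF, CRELD or their relatives, edgeR called 0, DESeq2 and limma-voom called 0, and none had an unadjusted p under 0.05. Their median log2 difference was -0.045. Among them Kdelr2, a receptor that returns escaped ER proteins, stood at 0.13 (SE 0.0936, adjusted p = 0.697, edgeR).

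**Figure D2:**
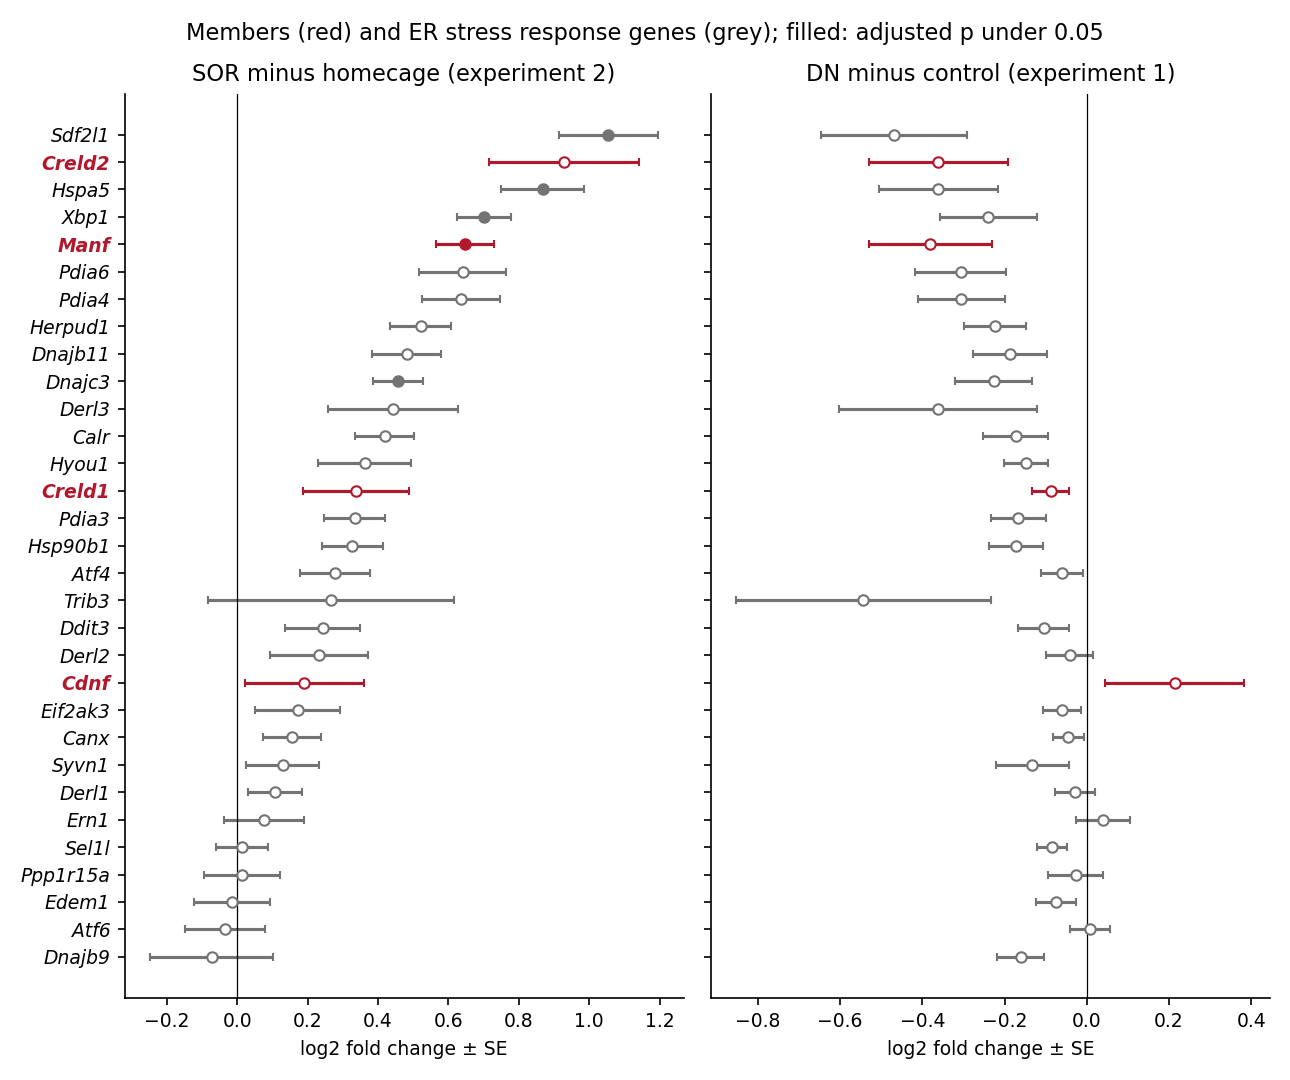
Log2 fold changes ± SE (x axis) of the 4 members in red and 27 ER stress response genes in grey (y axis, ordered by the SOR value), for SOR against homecage and for DN against control, with filled points for an adjusted p under 0.05. After SOR, Creld2 (0.93) and Manf (0.65) stand among Sdf2l1, Hspa5 and Xbp1, with Creld1 (0.34) and Cdnf (0.19) lower down, and in the DN comparison 25 of the 27 list genes and all members except Cdnf are below 0 with no filled point.

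Each inducible gene was then set against its paralog within each library, which needs no scaling between libraries. Homecage libraries held 21.5, 19.2, 21.1 and 21.5 Manf counts per Cdnf count, and SOR libraries held 34.1, 26.7, 29.5 and 25.5. The ratio was 1.38-fold higher after SOR with no overlap (log2 difference 0.47, exact two-sided permutation p = 0.0286, the smallest that 4 against 4 allows, and 0.0857 after adjustment over 6 ratio tests). For Creld2 to Creld1 the homecage libraries had 0.255, 0.234, 0.275 and 0.259 and the SOR libraries 0.336, 0.350, 0.447 and 0.382. That ratio was 1.47-fold higher, again with no overlap (log2 difference 0.56, exact permutation p = 0.0286, adjusted 0.0857). SOR replicate 3, which stood far out for both Creld genes singly, was the highest of the 4 in their ratio by a smaller margin. Neither ratio passed 0.05 after adjustment. As neither permutation p could be smaller with 4 against 4, that outcome depended on the other ratio tests.

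**Figure D3:**
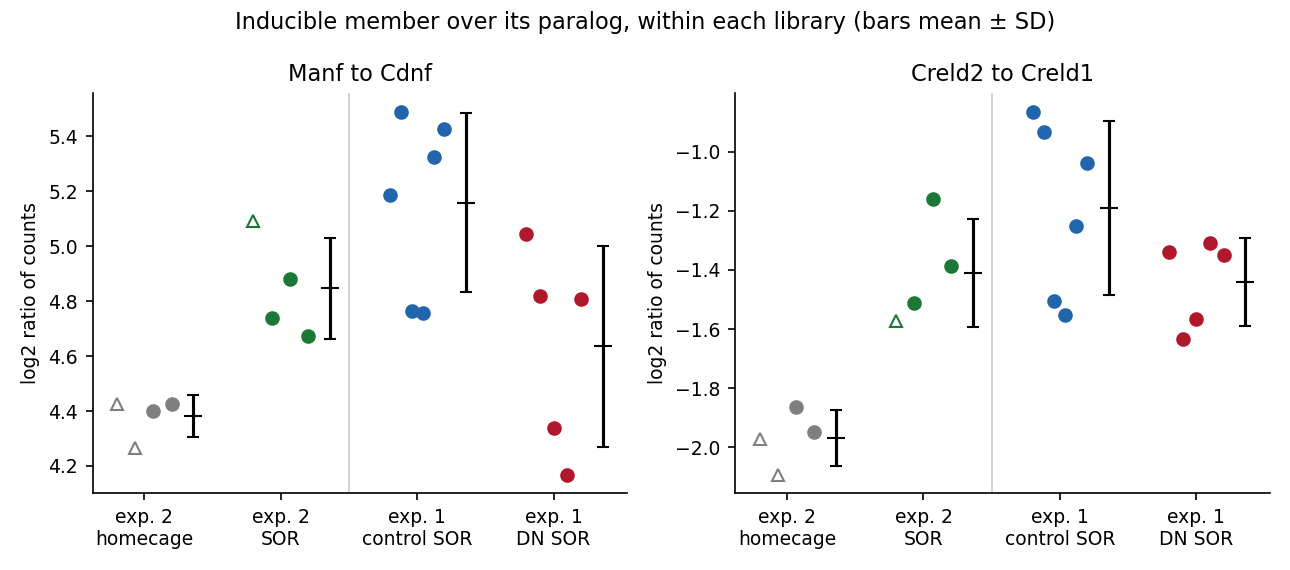
Log2 ratio of Manf to Cdnf counts and of Creld2 to Creld1 counts (y axes) within each library by group (x axis), circles for tTA+ and open triangles for tTA-, bars for mean ± SD. All 4 SOR libraries of experiment 2 lie above all 4 homecage libraries in both panels, while DN and control libraries of experiment 1 overlap.

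The second comparison asked what differs between DN mice and controls when all carried tTA and all were exposed to SOR. Manf and Creld2 had lower means in DN libraries, and no member passed the test. The DN libraries had 47.8, 39.8, 40.9, 49.5 and 47.7 CPM of Manf. The 6 controls ranged from 42.7 to 74.1 CPM with a median of 59.3, so the DN range overlapped the lower part of the control range. The log2 difference was -0.38 (SE 0.150, unadjusted p = 0.0307, adjusted p = 0.999, edgeR).

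Creld2 had 20.2, 17.9, 16.5, 21.3 and 19.8 CPM in the DN libraries. The controls ranged from 17.9 to 31.9 CPM with a median of 24.8. Its log2 difference was -0.36 (SE 0.169, unadjusted p = 0.0590, adjusted p = 0.999, edgeR). For both genes the groups differed in spread as well: the SD of Manf was 4.46 CPM in DN and 12.2 CPM in control libraries, and that of Creld2 was 1.91 and 5.97 CPM.

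Cdnf had 1.43, 1.39, 2.00, 2.75 and 1.69 CPM in the DN libraries and 1.37 to 1.91 CPM in the controls (median 1.599). DN replicate 4 was the highest of all 19 libraries, and without it the log2 difference of 0.21 (SE 0.169, adjusted p = 0.999, edgeR) became 0.01. Creld1 had 51.1, 55.5, 49.0, 52.8 and 50.5 CPM in the DN libraries and 51.0 to 61.0 CPM in the controls (median 54.5), a log2 difference of -0.09 (SE 0.0459, adjusted p = 0.999, edgeR), or -0.06 without control replicate 2. edgeR called 2 of 22391 genes (0.00893%) and none of the 4 members, of which 1, Manf, was lower at an unadjusted p under 0.05, as were 1.81% of the genes tested. DESeq2 and limma-voom called no member either.

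Control replicates 1 and 2, the libraries highest in Manf (70.2 and 74.1 CPM) and Creld2 (30.5 and 31.9 CPM), were also rich in choroid plexus markers, with summed levels of 6520 and 2430 CPM. DN replicate 2 had 3000 CPM of these markers and the lowest Manf of its group (39.8 CPM). The other 4 controls had 331 to 370 CPM of the markers, and 42.7, 47.9, 59.2 and 59.5 CPM of Manf. Without control replicate 1 the log2 difference of Manf between DN and control was -0.33, and without control replicate 2 it was -0.30. In this comparison an unadjusted p under 0.05 (edgeR) was found for 0 of 8 choroid plexus markers (median log2 difference -0.951), 2 of 6 astrocyte, 2 of 8 oligodendrocyte and 0 of the neuronal, blood and microglia markers, and none was called. The part of these markers in the difference was not tested.

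The ratios to the paralogs gave the same order with overlap. DN libraries held 33.0, 28.2, 20.2, 18.0 and 28.0 Manf counts per Cdnf count against 27.0 to 45.0 in controls. The log2 difference was -0.52 (0.696-fold, exact permutation p = 0.0433, adjusted 0.0866). Creld2 to Creld1 stood at 0.323 to 0.404 in DN and at 0.341 to 0.549 in control libraries, a log2 difference of -0.25 (exact permutation p = 0.126, adjusted 0.188).

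Of the 27 ER stress response genes, edgeR, DESeq2 and limma-voom each called 0 in the DN comparison. The list's median log2 difference was -0.16 against 0.0001 over all genes tested, 25 were negative, and 12 were lower at an unadjusted p under 0.05, as were 1.81% of all genes tested. Those of smallest p were Herpud1 (-0.22), Dnajb9 (-0.16), Hyou1 (-0.15), Pdia4 (-0.31) and Pdia6 (-0.31), all with an adjusted p of 0.999 (edgeR). Hspa5 stood at -0.36 (SE 0.145) and Xbp1 at -0.24 (SE 0.118, both adjusted p = 0.999, edgeR). Control replicates 1 and 2, rich in choroid plexus markers, were the controls highest in Hspa5 (760.4 and 778.9 CPM) and Xbp1 (142.1 and 145.5 CPM). DN replicate 2, also rich in these markers, had 447.7 and 90.72 CPM of Hspa5 and Xbp1. The part of the markers in the list's differences was not tested. Among the 8 partner and retrieval genes none was called by edgeR, DESeq2 or limma-voom, and 1 had an unadjusted p under 0.05, the KDEL receptor gene Kdelr3 (0.48, SE 0.168, adjusted p = 0.999, edgeR), in the direction in which 2.02% of all genes had one.

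Between libraries of experiment 1, Manf and Creld2 varied together. Over the 11 libraries the Pearson correlation of their log2 CPM was 0.976 (permutation p = 1e-05, the smallest the resampling can give, adjusted 6e-05 over 6 pairs), and Spearman's rho was 0.945 (permutation p = 4e-05). It was 0.934 without the 2 libraries farthest from the median of Manf and 0.980 within the 6 controls. Manf with Creld1 gave 0.730 (rho 0.691, permutation p = 0.0100 and 0.0224, r adjusted 0.0200) and Creld2 with Creld1 gave 0.751 (rho 0.745, permutation p = 0.00625 and 0.0114, r adjusted 0.0187). These fell to 0.435 and 0.484 without the 2 farthest libraries, control replicates 1 and 2, so they rest on those. The values within the 6 controls, 0.87 and 0.80, include the same libraries. Cdnf gave -0.022 with Manf, -0.043 with Creld2 and -0.192 with Creld1 (rho 0.055, -0.100 and -0.291, permutation p from 0.386 to 0.952). Without the 2 libraries farthest from the median of Manf the first was -0.168. Without the 2 farthest from the median of Cdnf, DN replicates 3 and 4, the others were 0.269 and 0.082.

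**Figure D4:**
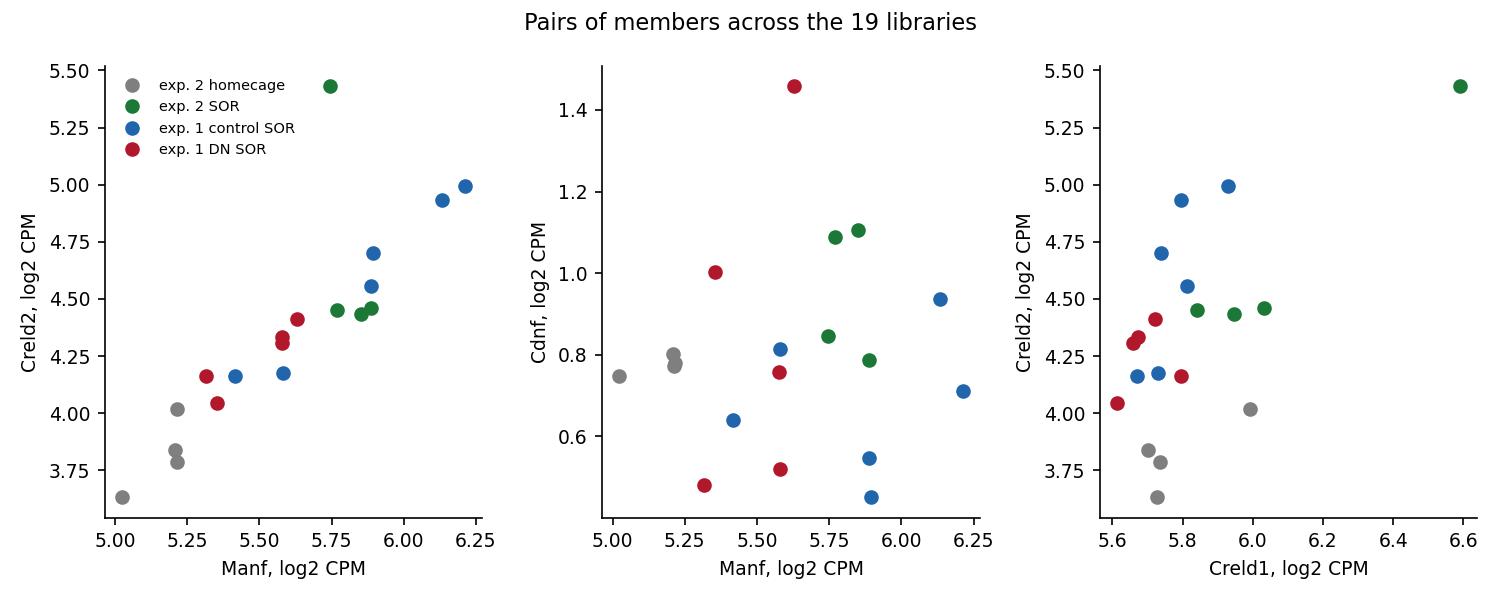
Log2 CPM of Manf against Creld2, Manf against Cdnf and Creld1 against Creld2 (x and y axes) in the 19 libraries, coloured by group. In experiment 1 the Manf and Creld2 points follow a line (r = 0.976), SOR replicate 3 of experiment 2 lies off it with high Creld2 and Creld1, and Manf and Cdnf show no line in experiment 1 (r = -0.022).

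Among 16851 genes with a mean of at least 1 CPM, those whose log2 CPM followed a member most closely were ranked over the 19 libraries, with each gene centred within its experiment. For Manf they were Dnajc3 (r = 0.979), P4ha1 (0.967), a subunit of prolyl 4-hydroxylase in the ER, Xbp1 (0.962), Herpud1 (0.954) and the small heat shock protein gene Hspb1 (0.944). Hspa5 came next (0.940), Creld2 was at rank 43 (0.835), and Cdnf at rank 6143 (0.161, with -0.02 in experiment 1 and 0.652 in experiment 2, whose 8 libraries fall into 2 exposure groups). For Creld2 they were Ddx50 (0.971), the BiP cochaperone gene Dnajb11 (0.965), the disulfide isomerase genes Pdia6 (0.965) and Pdia4 (0.949), and Hspa5 (0.954). Without SOR replicate 3 the correlation of Manf with Creld2 was 0.955 and that of Manf with Hspa5 was 0.980.

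No gene of the ER stress response list was among the 5 closest to either paralog. For Cdnf they were Socs2 (0.818), Irf1 (0.753), Ttc41 (0.736), Gbp5 (0.683) and Polr1b (0.668), and within experiment 2 alone Irf1 and Gbp5 gave 0.219 and 0.381. For Creld1 they were Ppp1r37 (0.960), Ubtf (0.950), Mob2 (0.941), Zcchc8 (0.940) and Agap3 (0.938), and without SOR replicate 3 these lay between 0.817 and 0.879. Within experiment 1 alone they were 0.790, 0.528, 0.669, 0.677 and 0.857, in the same order. Farther down, Creld1 had r = 0.864 with Creld2 (rank 209) and 0.751 with Hspa5 (rank 1208). Without SOR replicate 3 the 2 values were 0.752 and 0.714. Cdnf had r = 0.110 with Hspa5 (rank 4939). These values describe 19 libraries that share exposure, genotype and choroid plexus marker differences.

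The third comparison set the 5 tTA+ against the 3 tTA- libraries of experiment 2 with exposure in the model, on the same 8 libraries as the SOR comparison. The log2 differences were 0.01 for Manf (SE 0.0897), 0.12 for Cdnf (SE 0.182), 0.15 for Creld2 (SE 0.240) and -0.03 for Creld1 (SE 0.174). edgeR called 82 of 22904 genes (0.358%) and no member, and none of the 4 had an unadjusted p under 0.05, as 5.71% of genes had. DESeq2 and limma-voom called no member. The signs for Manf, Creld2 and Creld1 turned under some alternatives, and Cdnf stood at 0.03 without SOR replicate 1, so no direction is given. Within exposure, the Manf to Cdnf ratio differed by -0.13 on the log2 scale (exact permutation p = 0.292, adjusted 0.292) and Creld2 to Creld1 by 0.17 (exact permutation p = 0.167, adjusted 0.200), where 24 arrangements allow no p below 0.0417. Mean Manf levels after SOR and in the homecage were 59.2 against 34.8 CPM in tTA- libraries (1 against 2) and 55.3 against 37.1 CPM in tTA+ libraries (3 against 2).

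The genes beside the members were read in the same fits. Alg12, a mannosyltransferase gene that starts 327 bases from Creld2 on the other strand, has the same ERSE bases in its own window, 220 to 202 bases before its start. It had 10.3, 9.77, 10.1 and 9.41 CPM in homecage and 11.9, 10.24, 10.03 and 9.43 CPM in SOR libraries. The groups overlapped, and the log2 difference was 0.07 (SE 0.109, adjusted p = 0.836, edgeR), beside 0.93 for Creld2. In SOR replicate 3, where Creld2 was highest, Alg12 was at 10.03 CPM. In the DN comparison Alg12 stood at -0.14 (SE 0.0754, adjusted p = 0.999, edgeR).

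Hspa14, a gene for a ribosome-bound member of the HSP70 family, starts 215 bases from Cdnf on the other strand. It had a log2 difference of 0.29 after SOR with no overlap between groups (SE 0.105, adjusted p = 0.621, edgeR), and Gm45902, which lies within the span of Hspa14, had 0.01. Around Manf, Dcaf1 stood at 0.20 (SE 0.0706, adjusted p = 0.621, no overlap), Rbm15b at 0.16, Dock3 at -0.18 and 4930524O07Rik at 0.54 (SE 0.400, adjusted p = 0.702, edgeR). That antisense transcript had mean levels of 0.705 (SOR) and 0.487 CPM (homecage), against 56.3 and 35.9 CPM for Manf. Beside Creld1, Il17rc stood at 0.36 (SE 0.168, adjusted p = 0.657) and Prrt3 at -0.02 (adjusted p = 0.964, edgeR). The low-count neighbours Gm37612 and Gm13186 were not tested after SOR.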

How the data were processed

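Per the labels' protocols, Trizol served to extract RNA from frozen dorsal hippocampus, and the TruSeq library kit included rRNA removal (Ribo-Zero Gold). The authors deposited 1 table of unnormalized counts, whole numbers for each gene and library. The submitters' processing notes name STAR, SAMtools 1.6, featureCounts 1.4.4 and mm10. Strand and multiple mapping settings are not given in the sources used here. GENCODE M21 held 51596 of 51789 identifiers, and 12594 genes had no count. Group, genotype and replicate number came from the labels. Replicates differed by more than counting noise, so none was merged.

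From the counts, each experiment was fitted alone with edgeR 4.0.16 (R 4.3.3): TMM, filterByExpr, glmQLFit with robust dispersion and two-sided glmQLFTest, with Benjamini-Hochberg adjustment over all genes tested and calls at 0.05. The SE is the absolute log2 fold change over the square root of F. On simulated counts with 200 genes changed 2-fold the fits recovered 194 (SOR, 22305 genes), 198 (DN, 22391) and 188 (tTA, 22904), with 16, 13 and 16 false calls. The changed genes were drawn only from those above a set mean CPM, which Cdnf did not reach. Counts were drawn at the fitted dispersions with no outlying library, so recovery in the real libraries can be lower. Paralog ratios added 0.5 to each count. Correlations used log2 CPM with a prior count of 2 and 100000 permutations. RPKM used the union of annotated exons, and overlap of groups was read from scaled CPM.

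The members, the lists (27 ER stress response genes, 8 partner and retrieval genes, cell type markers) and the tests were chosen with earlier results of these data known. Named were the members, ER stress response genes called and, in the SOR and DN comparisons, the 5 uncalled ones of smallest p. Also named were neighbours within 5 kb, Hspa5, Xbp1 and the 5 genes most like each member. For the tTA comparison and the partner and retrieval list, naming the 5 of smallest p was planned but not followed in full. Other list genes given as examples, Kdelr2, the sensors and Dnajb9 among them, were chosen after their values were seen. Alternatives covered scaling, filters, DESeq2 1.42.0, limma-voom (limma 3.58.1), the threshold, all 19 libraries in 1 fit, the replicate block, tTA genotype, coding length and each library left out. Calls of the 2 lists under these alternatives were added after seeing the data. No protein sequence comparison was made.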

Additional observations from a re-analysis of the deposited data

Results flagged for a closer look

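In 24 sets of 4 to 6 libraries (the 4 genes and 2 ratios in 4 groups), the highest or lowest library was compared with the rest of its group by Dixon's criterion, which chance meets in about 1 of 20 groups. It was met 4 times. Manf was lowest in homecage replicate 2, at 32.5 CPM. The log2 ratio of Manf to Cdnf was also lowest there, at 4.27. Creld2 was highest in SOR replicate 3 of experiment 2, at 43.1 CPM, and Creld1 was highest among homecage libraries in replicate 1, at 63.6 CPM.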

How the results depend on the processing

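Cdnf rested on 38 to 122 counts per library over the 19 libraries, the fewest of the 4 genes. After SOR, 20 genes were called in the chosen fit, 36 with no filter on low counts, 116 by DESeq2, 35 at an adjusted p under 0.1, 145 with all 19 libraries in 1 fit, 9 under the replicate block, 11 with tTA as a covariate and 0 in tTA+ mice alone. Leaving out 1 library gave 1 to 50 (1 without homecage replicate 1, 2 or 3, 2 without SOR replicate 1, 7 without homecage replicate 4, 13 without SOR replicate 2, 50 without SOR replicate 3). Members called after SOR were 2 by DESeq2, 0 under the replicate block, 0 in tTA+ mice alone and 0 to 2 with 1 library left out. The log2 difference of Manf was 0.65 (adjusted p = 0.0710, edgeR) under the replicate block, 0.58 in tTA+ mice alone and 0.60 to 0.67 with 1 library left out, and that of Creld2 was 0.94 by DESeq2 and 0.63 to 1.02 with 1 library left out. Deviations of same-numbered libraries from their group means correlated at 0.045 to 0.391 in experiment 2 and at -0.05 to 0.194 in experiment 1. These few values cannot decide whether replicate numbers pair the libraries. In the tTA comparison, 82 genes were called, 265 with no filter, 255 by DESeq2, 133 at 0.1, 383 with all 19 libraries, 0 under the replicate block and 10 to 290 with 1 library left out. Signs turned there for Manf with upper quartile scaling (-0.0154; -0.0473 to 0.0937 with 1 library left out), for Creld2 under the block (-0.0991; -0.0217 to 0.292) and for Creld1 with exposure left out (0.0794; -0.144 to 0.0679), while Cdnf was 0.231 under the block, and the Manf to Cdnf ratio ran from -0.170 to 0.0669. The ER stress response list had 9 calls after SOR by DESeq2, 9 with all 19 libraries, 1 with tTA as a covariate, 0 in tTA+ mice alone and 0 to 7 with 1 library left out, and in the tTA comparison 1 with all 19 libraries against 0. Per kilobase of coding sequence, mean levels were 92.9 for Manf, 3.15 for Cdnf, 20.5 for Creld2 and 45.6 for Creld1, against 14.2, 0.569, 15.8 and 13.5 per kilobase of exon. The cause of these differences was not tested. In the DN comparison no member was called and no sign of a member turned under any of the alternatives.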

Other observations

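Among all promoter windows, those of 37 genes hold an ERSE, Creld2 among them. Of these, 22 were tested after SOR, and Dnajc3 and Hspa5 were called (edgeR), 9.09% of the 22 against 0.0897% of all genes tested. Both are calls already counted in the ER stress response list, and the share over all genes includes genes without a promoter in the table. At an unadjusted p under 0.05 (edgeR), 7 of the 22 were higher and 0 lower (3.67% of all genes were higher). Of the 22 differences, 14 were positive and 8 negative. The median log2 difference of the 22 was 0.13, against 0.028 over 13239 tested genes with any promoter in the table. In the DN comparison 21 were tested, edgeR called 0, 5 had an unadjusted p under 0.05, all lower (1.81% of all genes were lower), 6 differences were positive and 15 negative, and the median was -0.14, against -0.0049 over 13092 genes. Of the 27 ER stress response genes, 24 have a promoter in the table. Among these, 8 hold an ERSE (Hspa5, Calr, Pdia6, Dnajc3, Hsp90b1, Derl3, Canx and Syvn1), and 2 hold an ERSE-II, Herpud1 and Dnajb11. Sdf2l1 and Xbp1, which rose after SOR, hold neither in these windows. These are descriptions with no test.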
